A study of Mus musculus with 6 samples.

Results

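Of 27761 genes in the table of mouse bone marrow B220+ cells, 10 were chosen by symbol for their place in the feedback that follows MAP kinase signalling: Dusp1, Dusp2, Dusp5, Dusp6, Nr4a1, Nr4a2, Zfp36, Btg2, Klf6 and Ier3. All 10 had 1 row each. Messenger RNA was measured in 3 libraries labelled PELI2 knockout, titled CKO, and 3 labelled WT. The targeted gene, Peli2, belongs to the Pellino family, whose proteins attach ubiquitin to partners in innate immune signalling. The Cre driver, the deleted exons, and the age and sex of the mice are not given in the sources used here, nor is any treatment of the cells or whether each library comes from 1 animal. Each p-value therefore measures only the spread between these samples.

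Values are FPKM, reads scaled to transcript length and library size, so that levels of different genes can be compared per length. Fold changes are differences on the log2(FPKM + 1) scale, PELI2 knockout minus WT. A gene passed at an adjusted p under 0.05 in limma, with Benjamini-Hochberg adjustment over the 12953 genes at 1 FPKM or more in at least 3 libraries. All 10 members were among those genes.

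MAP kinases carry signals from receptors, among them the B cell receptor and Toll-like receptors, to the nucleus, where genes are switched on within minutes without new protein synthesis. Several of these early genes shut the signal off again. Dual-specificity phosphatases of the Dusp family remove phosphate from the kinases, and Zfp36 and Btg2 speed the decay of messengers. Nr4a1 is widely used in lymphocytes as a reporter of recent antigen receptor signalling.

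Early response genes are known for sites of the cAMP response, serum response and NF-kB factors near their start, so these were searched. RefSeq promoters of GRCm38.p6, from 250 bases before to 50 bases after a gene's start, were found for all 10 members. A member was counted if any of its promoters held the site, whereas each percentage below is over single promoters. The cAMP response element half-site TGACG, searched on both strands, was in 6 of 10 (Dusp1, Dusp2, Dusp5, Nr4a1, Nr4a2 and Btg2) and in 20.8% of all 32851 promoters. The full site TGACGTCA, which contains the half-site on both strands, was in Dusp1 and Btg2 and in 1.8% of all promoters. The CArG box bound by serum response factor was in Dusp5 and Zfp36 and in 1.6% of all promoters. The kB site was in Nr4a1 and Ier3 and in 4.5%, and TATAAA was in Nr4a2 and in 13.6%. A match is a description of the letters and does not show that a factor binds. The promoters of Dusp1, Dusp2, Dusp5 and Ier3 are shown as examples with a match. In the levels described below, the groups were apart for Dusp2, Dusp5 and Ier3 but not for Dusp1. They were also apart for Dusp6 and Klf6, whose promoters held none of the searched sites and are not shown. Capitals mark the half-sites on either strand (Dusp1, Dusp2 and Dusp5), a pair of CArG boxes side by side (Dusp5) and the kB site (Ier3).
Dusp1 (chr17:26508423-26508722, minus strand): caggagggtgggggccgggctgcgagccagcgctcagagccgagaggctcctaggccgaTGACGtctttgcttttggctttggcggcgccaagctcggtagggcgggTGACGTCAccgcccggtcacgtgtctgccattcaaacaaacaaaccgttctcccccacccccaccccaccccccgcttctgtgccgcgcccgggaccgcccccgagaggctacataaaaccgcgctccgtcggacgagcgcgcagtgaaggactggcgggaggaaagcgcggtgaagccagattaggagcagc
Dusp2 (chr2:127335909-127336208, plus strand): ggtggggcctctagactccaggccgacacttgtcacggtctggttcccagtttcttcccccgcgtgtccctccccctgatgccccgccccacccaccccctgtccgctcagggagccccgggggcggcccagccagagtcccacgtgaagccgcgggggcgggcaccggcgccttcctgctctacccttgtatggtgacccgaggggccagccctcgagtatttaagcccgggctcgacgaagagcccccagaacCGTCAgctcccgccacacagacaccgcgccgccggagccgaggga
Dusp5 (chr19:53528895-53529194, plus strand): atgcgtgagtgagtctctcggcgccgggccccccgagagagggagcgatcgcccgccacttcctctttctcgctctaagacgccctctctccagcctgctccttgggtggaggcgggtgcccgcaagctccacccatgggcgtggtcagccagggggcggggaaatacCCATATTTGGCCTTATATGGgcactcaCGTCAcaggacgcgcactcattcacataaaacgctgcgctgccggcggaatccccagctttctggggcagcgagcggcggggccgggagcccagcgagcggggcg
Ier3 (chr17:35821463-35821762, plus strand): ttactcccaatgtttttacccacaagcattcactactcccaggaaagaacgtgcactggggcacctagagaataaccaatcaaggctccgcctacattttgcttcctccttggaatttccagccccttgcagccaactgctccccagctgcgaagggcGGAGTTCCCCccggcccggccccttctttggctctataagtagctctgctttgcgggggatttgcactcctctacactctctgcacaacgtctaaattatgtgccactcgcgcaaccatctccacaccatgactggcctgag

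The members were compact genes, and most carried AU-rich motifs. Each had a span under the median of tested coding genes, from 1240 bases for Ier3 to 20527 bases for Nr4a1, where that median was 22753 bases. Each also had fewer exons, 2 to 8, against a median of 9. In the 3′ untranslated region of the longest complete coding transcript (GENCODE M21), the AU-rich heptamer TATTTAT, the core to which Zfp36 binds, was present in 7 of 10 members (Dusp1, Dusp2, Nr4a2, Zfp36, Btg2, Klf6 and Ier3) and in 29.3% of 10617 tested coding genes. Ier3 had 4 copies in 613 bases, and Dusp1 and Zfp36 had 3 copies each. The pentamer ATTTA, which the heptamer contains, occurred at least 3 times in 8 of 10 members and in 36.8% of tested coding genes. Dusp5 and Dusp6 had 1 pentamer each and no heptamer. Short windows around a heptamer (capitals) are shown for the 3 members with most copies and for Dusp2.
Ier3 (chr17:35822483-35822507, plus strand): tctaattaaTATTTATgTATTTATg
Dusp1 (chr17:26506161-26506185, minus strand): gctggtcctTATTTATttaacaccc
Zfp36 (chr7:28376953-28376977, minus strand): tgacgacttTATTTATtgtattaag
Dusp2 (chr2:127338306-127338330, plus strand): agcactttaTATTTATatagaacat

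Most members were among the most abundant messengers of these cells. Averaged over the 6 libraries, Zfp36 stood highest at 449 FPKM, followed by Dusp1 at 385, Btg2 at 333, Dusp2 at 254, Klf6 at 206, Dusp5 at 165, Dusp6 at 120 (119.6) and Nr4a1 at 110 (109.9) FPKM. These 8 genes lay at or above the 96.8th percentile of tested genes. The ranges of neighbours in this order, taken across libraries, overlapped down to Nr4a1. Within every library, however, Zfp36 was above Dusp1, Btg2 above Dusp2 and Dusp5 above Dusp6. The other neighbours down to Nr4a1 changed places between libraries, so their order is not fixed. Ier3 at 18.9 FPKM and Nr4a2 at 6.51 FPKM stood apart below them, at the 75.5th and 44.9th percentile. The library with fewest reads for a member held about 294 reads (Ier3), Nr4a2 held about 353 at its lowest, and the other members held about 3432 or more.

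The labels and the makeup of the libraries limit what a direction below can mean. Where the label says PELI2 knockout, Peli2 had values of 3.07, 2.70 and 2.47 FPKM, against 2.03, 2.54 and 1.99 FPKM in WT, a difference of 0.556 FPKM (two-sided exact permutation test, p = 0.2, where 3 against 3 libraries cannot go below 0.1). The targeted gene was not lower under its label. A single value per gene cannot show the loss of some exons, so the libraries are named below by their labels. The B lineage marker Cd79a and Ptprc, the gene that encodes B220, were present, but transcripts of other marrow cells were abundant too. A value per gene cannot separate the B220 form of Ptprc from its forms in other leukocytes. Ptprc is counted among the 15 B lineage markers. The summed FPKM of 15 B lineage markers ran from 1905 to 1996 in PELI2 knockout libraries and from 2314 to 2779 in WT libraries, and 14 of the 15 had a lower mean in PELI2 knockout. The sums of 15 granulocyte markers ran from 12270.0 to 14483 FPKM in PELI2 knockout and from 7827 to 10837 FPKM in WT. Those of 12 monocyte and macrophage markers ran from 1065 to 1312 FPKM in PELI2 knockout and from 712 to 991 FPKM in WT. The sums of 12 erythroid markers ran from 14305 to 18184 FPKM in PELI2 knockout and from 9424 to 13716 FPKM in WT. Every marker of these 3 lists had a higher mean in PELI2 knockout. WT replicate 1 had the most B lineage and the least granulocyte, monocyte and erythroid marker RNA of the 6 libraries. In bulk samples fewer cells of a type and less RNA per cell cannot be told apart.

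No member passed the test between the groups, while 3 of 12953 tested genes did (0.0232%). At an unadjusted p under 0.05, 2 members were higher in PELI2 knockout, Ier3 and Klf6, beside 9.2% of all tested genes, and 3 were lower, Dusp2, Dusp5 and Dusp6, beside 8.88%. Those shares came from 1192 genes higher and 1150 lower, and from 726 higher and 2331 lower once libraries were set to 1 common total. For the same 5 members the groups did not overlap. That was 2 of 10 higher, beside 11.5% of tested genes, and 3 of 10 lower, beside 14.3%. The members were chosen with earlier results of these data known, so these counts are not independent of the data. The median log2 fold change of the 10 members was 0.08, and that of all tested genes was -0.01.

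**Figure D1:**
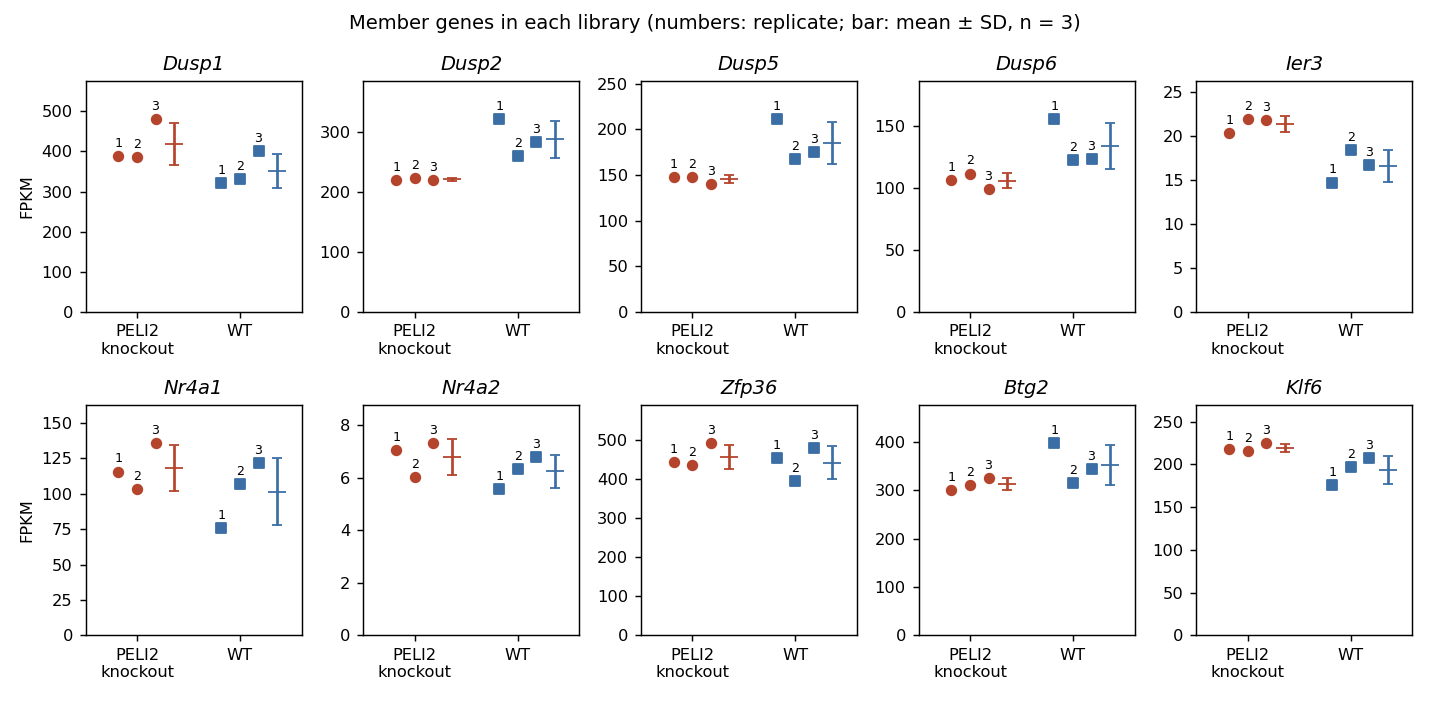
FPKM of the 10 members (vertical axes from 0) in each PELI2 knockout library (circles) and WT library (squares), numbered by replicate, with mean ± SD (n = 3) beside each group. The groups are apart for Dusp2, Dusp5, Dusp6, Ier3 and Klf6. WT replicate 1 is at an extreme of 9 of the 10 genes, beside 51.5% of all tested genes.

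Among the phosphatases, Dusp2, Dusp5 and Dusp6 were lower in PELI2 knockout libraries and Dusp1 was not. Dusp2, a nuclear phosphatase found mainly in blood cells (ENSMUSG00000027368, GRCm38 chromosome 2, 127336159 to 127338376), stood at 219, 223 and 220.0 FPKM in PELI2 knockout, against 321, 259 and 283 FPKM in WT. Every WT library was above every PELI2 knockout library, and the PELI2 knockout libraries differed little among themselves. The means were 221 ± 2.22 and 288 ± 31.0 FPKM (SD, n = 3 each), with a log2 fold change of -0.38 (standard error 0.09, limma adjusted p = 0.15).

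Dusp5, a nuclear phosphatase that acts on ERK (ENSMUSG00000034765, chromosome 19, 53529109 to 53542431), stood at 148, 148 and 140.4 FPKM in PELI2 knockout, against 211, 167 and 176 FPKM in WT. Its log2 fold change was -0.34 (standard error 0.09, limma adjusted p = 0.178). Dusp6, the cytoplasmic phosphatase of ERK (ENSMUSG00000019960, chromosome 10, 99263231 to 99267489), stood at 107, 111 and 98.9 FPKM in PELI2 knockout, against 155, 123 and 123 FPKM in WT. Its log2 fold change was -0.33 (standard error 0.10, limma adjusted p = 0.208). For both genes the groups did not overlap, and WT replicate 1 was well above the other WT libraries. Without that library the log2 fold changes of Dusp2, Dusp5 and Dusp6 were -0.29, -0.24 and -0.22 (limma adjusted p = 0.23, 0.239 and 0.296). An antisense gene overlaps the start of Dusp5, and since strand use is not stated, its reads cannot be told apart from those of Dusp5.

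Dusp1, a nuclear phosphatase that favours p38 and JNK (ENSMUSG00000024190, chromosome 17, 26505590 to 26508519), stood at 388, 387 and 479.9 FPKM in PELI2 knockout, against 321, 331 and 400.02 FPKM in WT. The groups overlapped: WT replicate 3 was above the lower pair of PELI2 knockout libraries. Its log2 fold change was 0.25 (standard error 0.12, limma adjusted p = 0.335), and was 0.15 without PELI2 knockout replicate 3 and 0.14 with quantile normalization. Ier3, a quickly induced regulator of ERK signalling and cell survival (ENSMUSG00000003541, chromosome 17, 35821684 to 35822923), stood at 20.3, 21.8 and 21.8 FPKM in PELI2 knockout, against 14.7, 18.3 and 16.7 FPKM in WT. All PELI2 knockout libraries were above all WT libraries. Its log2 fold change was 0.35 (standard error 0.08, limma adjusted p = 0.153), and 0.27 without WT replicate 1 (limma adjusted p = 0.239).

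**Figure D2:**
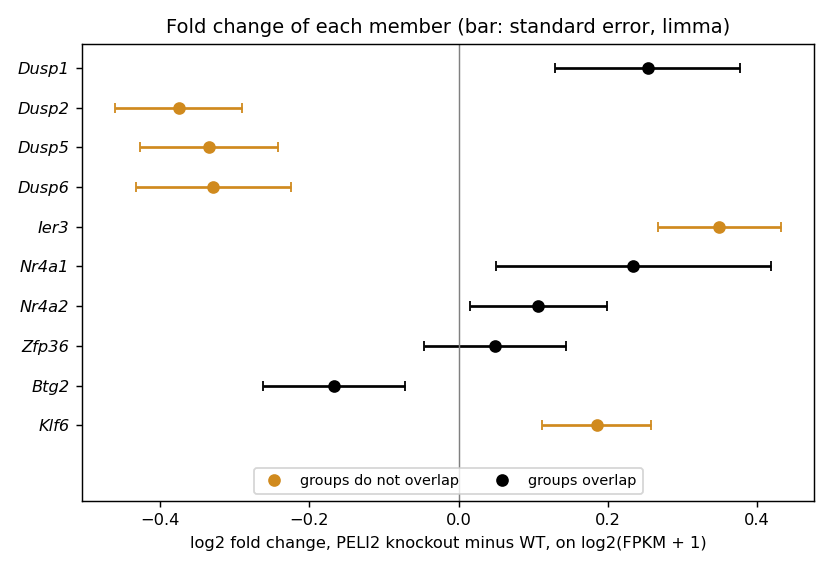
Log2 fold change of each member, PELI2 knockout minus WT, on log2(FPKM + 1), with the standard error from limma (n = 3 per group). Genes whose groups do not overlap are in orange; Dusp2, Dusp5 and Dusp6 lie between -0.38 and -0.33, and Ier3 at 0.35.

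The NR4A genes among the members, which encode orphan nuclear receptors, did not separate the groups. Nr4a1 (ENSMUSG00000023034, chromosome 15, 101254269 to 101274795) stood at 116, 103 and 136 FPKM in PELI2 knockout, against 75.8, 107 and 122 FPKM in WT. The groups overlapped, and WT replicate 1 was the lowest of the 6 libraries. The log2 fold change was 0.23 (standard error 0.19, limma adjusted p = 0.531), and 0.04 without WT replicate 1 (limma adjusted p = 0.925), 0.13 without PELI2 knockout replicate 3 and 0.38 without WT replicate 3. Nr4a2 (ENSMUSG00000026826, chromosome 2, 57106830 to 57124003) stood at 7.04, 6.02 and 7.31 FPKM in PELI2 knockout, against 5.58, 6.34 and 6.78 FPKM in WT. The groups overlapped again (log2 fold change 0.11, standard error 0.09, limma adjusted p = 0.569). Without 1 library each, its log2 fold change ran from 0.04 (without WT replicate 1) and 0.06 (without PELI2 knockout replicate 3) to 0.16 (without WT replicate 3) and 0.18 (without PELI2 knockout replicate 2), and it was 0.05 with libraries at 1 common total. Within a library Nr4a1 stood 17.4 ± 1.09 times above Nr4a2 in PELI2 knockout and 16.2 ± 2.27 times in WT (SD, n = 3 each).

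The 2 messenger decay factors also overlapped between the groups. Zfp36, the protein tristetraprolin, which binds AU-rich elements (ENSMUSG00000044786, chromosome 7, 28376784 to 28380253), stood at 442, 435 and 491 FPKM in PELI2 knockout, against 452, 394 and 478 FPKM in WT. Its log2 fold change of 0.05 (standard error 0.10, limma adjusted p = 0.811) turned negative, to -0.025, with all libraries at 1 common total and to -0.019 after quantile normalization. An antisense gene overlaps it, and reads of that gene cannot be told apart here. Btg2, which binds the deadenylase complex and slows the cell cycle (ENSMUSG00000020423, chromosome 1, 134075170 to 134079120), stood at 301, 311 and 327 FPKM in PELI2 knockout, against 398, 316 and 344 FPKM in WT. WT replicate 1 was high, and the other WT libraries lay close to those of the knockout (log2 fold change -0.17, standard error 0.10, limma adjusted p = 0.401; -0.08 without WT replicate 1 and -0.26 with quantile normalization).

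Klf6, a zinc finger transcription factor induced early in many cells, including macrophages (ENSMUSG00000000078, chromosome 13, 5861482 to 5870394), stood at 218, 215 and 225 FPKM in PELI2 knockout, against 176, 197 and 207 FPKM in WT. The groups did not overlap, though WT replicate 3 came near the lowest PELI2 knockout library. The log2 fold change was 0.19 (standard error 0.07, limma adjusted p = 0.258), and 0.12 without WT replicate 1 and 0.11 with libraries at 1 common total.

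Members did not share 1 pattern across the libraries. WT replicate 1 was the highest library for 4 members, Dusp2, Dusp5, Dusp6 and Btg2, and the lowest for 5, Dusp1, Nr4a1, Nr4a2, Klf6 and Ier3. Over all tested genes it was the highest for 25.7% and the lowest for 25.8%. PELI2 knockout replicate 3 was the highest library for 5 members, Dusp1, Nr4a1, Nr4a2, Zfp36 and Klf6, beside 17.2% of tested genes. The SD on the log2 scale was smaller in PELI2 knockout than in WT for 8 of 10 members, beside 61.1% of tested genes. Its median over members was 0.07 in PELI2 knockout and 0.16 in WT, beside 0.079 and 0.1 over all tested genes. In PELI2 knockout 5 members were above the all-gene median, and in WT all 10 were.

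Marker sums stood apart in WT replicate 1 as well. On the log2 scale, WT replicate 1 deviated from the mean of the 6 libraries by 0.35 for Dusp2, 0.36 for Dusp5 and 0.39 for Dusp6, and the B lineage sum deviated there by 0.34. In the same library Ier3 deviated by -0.33, Klf6 by -0.23 and Nr4a1 by -0.51, where the granulocyte sum deviated by -0.53 and the monocyte sum by -0.50. Elsewhere Nr4a1 and the granulocyte sum agreed in sign in some libraries and not in others. They agreed in PELI2 knockout replicate 1 (0.096 and 0.119) and PELI2 knockout replicate 3 (0.324 and 0.358). They also agreed in WT replicate 2 (-0.013 and -0.06). Opposite signs were seen in PELI2 knockout replicate 2 (-0.07 and 0.24) and WT replicate 3 (0.17 and -0.12). The part of the marker sums in the results was not tested. The summed FPKM of 11 heat shock genes, a sign of handling stress, was 1.01 times as high in PELI2 knockout as in WT. Abundant chaperones such as Hsp90ab1 and Hspa8 weigh most in that sum. Bag3, of the same list, stood at 3.86 ± 0.24 FPKM in PELI2 knockout and 1.93 ± 0.27 FPKM in WT, without overlap (limma adjusted p = 0.0908). It was the only 1 of 10 tested heat shock genes with an unadjusted p under 0.05.

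**Figure D3:**
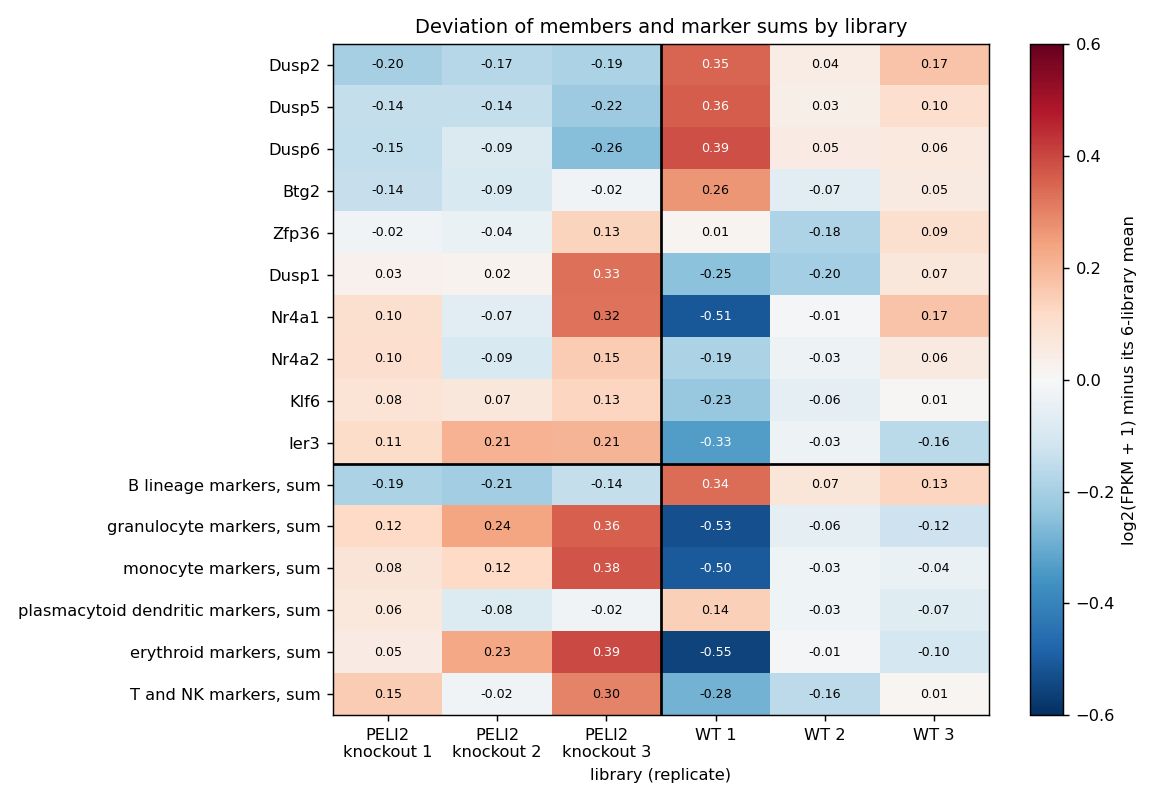
Deviation of log2(FPKM + 1) from its mean over the 6 libraries, for each member (upper block) and for summed marker genes (lower block), in PELI2 knockout and WT libraries. WT replicate 1 is high for Dusp2, Dusp5, Dusp6, Btg2 and the B lineage sum, and low for Nr4a1, Ier3 and the granulocyte, monocyte and erythroid sums.

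Ratios within a library do not depend on how libraries are scaled. The pairs below were chosen after the values were seen and carry no test. Dusp2, Dusp5 and Dusp6 kept nearly fixed proportions to each other. Dusp5 stood at 1.38 ± 0.05 times Dusp6 in PELI2 knockout and 1.38 ± 0.04 times in WT, and Dusp2 at 2.09 ± 0.12 and 2.16 ± 0.12 times Dusp6 (SD, n = 3 each). Their proportion to Cd79a, the signalling chain of the B cell receptor, was also alike between the groups. Dusp2 per Cd79a was 0.449, 0.443 and 0.427 in PELI2 knockout, against 0.443, 0.430 and 0.486 in WT. Dusp5 per Cd79a was 0.2898 ± 0.016 in PELI2 knockout and 0.2903 ± 0.012 in WT. Dusp6 per Cd79a was 0.2104 ± 0.016 in PELI2 knockout and 0.2096 ± 0.0055 in WT. The groups, which were apart in FPKM for these 3 phosphatases, overlapped once the values were taken per Cd79a. That overlap is stated for Cd79a only, since no other B lineage marker was used. Cd79a itself had a log2 fold change of -0.33, while the 15 B lineage markers ran from -0.588 to 0.011.

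Dusp1 did not keep these proportions. Dusp1 stood at 1.77, 1.73 and 2.18 times Dusp2 in PELI2 knockout, against 1.0004, 1.28 and 1.41 times in WT, and the groups did not overlap. Dusp1 per Cd79a was 0.831 ± 0.087 in PELI2 knockout and 0.560 ± 0.122 in WT, and Btg2 per Cd79a was 0.622 ± 0.0095 and 0.555 ± 0.033 (SD, n = 3 each), without overlap for either. Ier3 per Lyz2, the lysozyme gene of myeloid cells, was 0.0236 ± 0.0024 in PELI2 knockout and 0.0234 ± 0.0023 in WT, and Klf6 per Lyz2 was 0.244 ± 0.025 and 0.274 ± 0.034, with overlap for both. Per Cd14, a co-receptor of monocytes, Ier3 was 1.18 ± 0.05 in PELI2 knockout and 1.79 ± 0.41 in WT, lower without overlap. The difference of Cd14 itself was 0.87 on the log2 scale (limma adjusted p = 0.142). Klf6 per Cd14 was 12.2 ± 0.58 in PELI2 knockout and 20.8 ± 4.30 in WT, also lower without overlap. The outcome for Ier3 and for Klf6 depended on which myeloid gene they were set against.

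**Figure D4:**
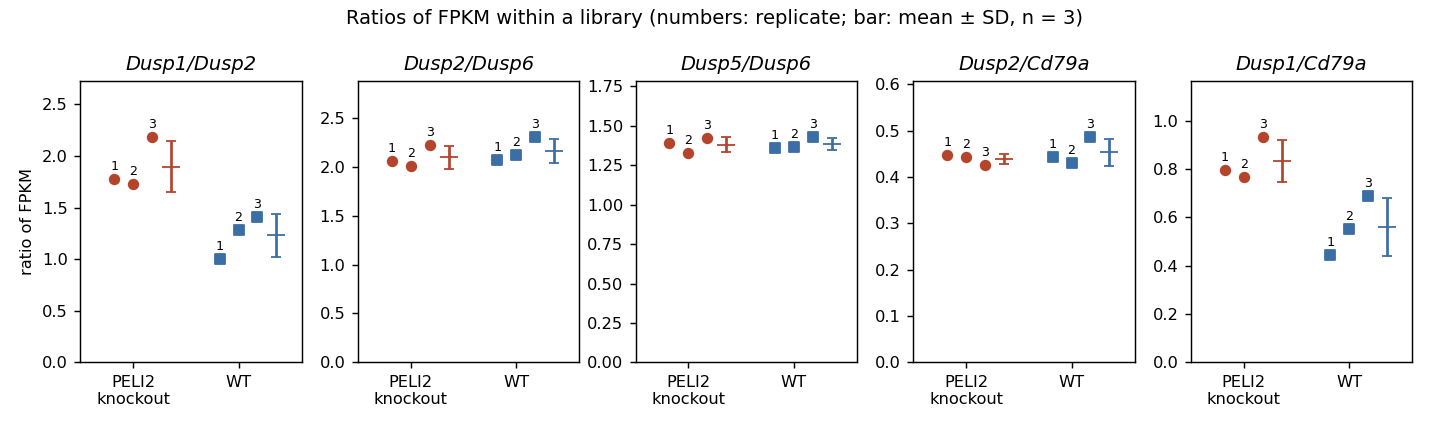
Ratios of FPKM within each library (vertical axes from 0) for PELI2 knockout (circles) and WT (squares), numbered by replicate, with mean ± SD (n = 3). Dusp1 per Dusp2 and Dusp1 per Cd79a are apart between the groups, while Dusp2 per Dusp6, Dusp5 per Dusp6 and Dusp2 per Cd79a overlap.

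Other inhibitors of the pathway gave no call either. Of 16 tested genes among 18 further dual-specificity phosphatases and relatives, 0 passed over all genes. At an unadjusted p under 0.05 there was 1 higher gene and there were 2 lower ones, and the median log2 fold change was -0.03. The higher gene was Dusp9, at 4.23 ± 1.03 FPKM in PELI2 knockout and 2.96 ± 0.32 FPKM in WT (limma adjusted p = 0.266), with overlap. Dusp11, an RNA phosphatase, stood at 26.2 ± 0.92 FPKM in PELI2 knockout and 29.9 ± 1.64 FPKM in WT (limma adjusted p = 0.207), and Dusp10, which acts on p38 and JNK, at 21.5 ± 2.25 and 23.3 ± 1.83 FPKM (limma adjusted p = 0.545). Of 11 tested negative regulators of Ras and ERK 0 passed and 9 had lower means, 2 of them at an unadjusted p under 0.05, with a median of -0.08. Dok3, an adaptor that dampens B cell receptor signalling, stood at 172 ± 7.29 FPKM in PELI2 knockout and 211 ± 34.6 FPKM in WT (limma adjusted p = 0.266). Spry2, a Sprouty protein, stood at 18.6 ± 0.73 and 21.0 ± 2.01 FPKM (limma adjusted p = 0.306).

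The kinases upstream of the members gave no call. Of 23 genes from Ras to ERK and its effector kinases 0 passed. An unadjusted p under 0.05 was found for 3 higher and 2 lower genes, and the list's median was 0.03 (log2). Rasgrp1, an activator of Ras in lymphocytes, stood at 17.6 ± 0.96 FPKM in PELI2 knockout and 21.7 ± 0.38 FPKM in WT (limma adjusted p = 0.14). Rps6ka1, an effector kinase, went the other way, at 61.0 ± 1.44 and 47.5 ± 4.90 FPKM (limma adjusted p = 0.147). Of 21 genes of the JNK and p38 cascades 0 passed. An unadjusted p under 0.05 was found for 5 higher genes and 1 lower gene, and the median was -0.02. The smallest p was that of Mapkapk3, a kinase downstream of p38, at 11.9 ± 0.27 FPKM in PELI2 knockout and 8.90 ± 0.46 FPKM in WT (limma adjusted p = 0.0908). Mapk13, a p38 gene, stood at 15.2 ± 0.55 and 10.1 ± 1.56 FPKM (limma adjusted p = 0.142).

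Genes induced along with the members, and their relatives, gave no call. Over all tested genes 6012 had higher and 6939 had lower means in PELI2 knockout. Of 19 immediate-early genes and their upstream factors 0 passed and 15 had higher means in PELI2 knockout (median 0.07 on the log2 scale), of which 2 had an unadjusted p under 0.05, as did 1 lower gene. Fos stood at 841 ± 85.2 FPKM in PELI2 knockout and 709.7 ± 56.6 FPKM in WT, with groups that did not overlap, and Jun at 967 ± 36.3 and 907 ± 77.3 FPKM, with overlap (limma adjusted p = 0.291 and 0.621). The third NR4A gene, Nr4a3, averaged 1.35 and 1.05 FPKM in PELI2 knockout and WT (limma adjusted p = 0.471); it lies outside the rule for named genes and was chosen after its values were seen. Of 19 genes of the Zfp36, Btg and Tob families and the deadenylases they bind 0 passed and 16 had lower means, with a median of -0.10. An unadjusted p under 0.05 was found for 6 lower genes of that list and 1 higher gene, and the groups were apart for 8 lower and 2 higher genes. The closest relatives of Zfp36 pointed opposite ways without overlap: Zfp36l2 stood at 252 ± 12.8 FPKM in PELI2 knockout and 205 ± 13.9 FPKM in WT, and Zfp36l1 at 135 ± 0.79 and 160.3 ± 14.5 FPKM (limma adjusted p = 0.16 and 0.201). Of 10 other Kruppel-like factors 0 passed and 0 had an unadjusted p under 0.05, with a median of 0.02, and the most abundant, Klf2, stood at 1342 ± 61.0 and 1289 ± 37.9 FPKM (limma adjusted p = 0.745). Of 24 NF-kB feedback and other quickly induced genes 0 passed, with 1 higher and 4 lower genes at an unadjusted p below 0.05 and a median of -0.04, and Nfkbia, the inhibitor of NF-kB, stood at 281 ± 3.12 and 294 ± 17.2 FPKM (limma adjusted p = 0.635).

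Of 10 tested messengers with AU-rich elements, Ier3 among them, 0 passed over all genes and 4 were higher at an unadjusted p under 0.05 (median 0.21 on the log2 scale). The cytokine Tnf stood at 13.5, 12.7 and 13.8 FPKM in PELI2 knockout, against 5.13, 7.30 and 11.4 FPKM in WT (limma adjusted p = 0.209). The chemokines Ccl3 and Ccl4 stood at 48.0 ± 1.21 and 60.6 ± 4.57 FPKM in PELI2 knockout, against 35.9 ± 8.59 and 45.5 ± 9.97 FPKM in WT (limma adjusted p = 0.252 and 0.235). All 3 had their lowest value in WT replicate 1, the library with the least monocyte marker RNA. Monocytes make these messengers too, and the part of those cells in the difference was not tested.

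The average of the 10 members' deviations was nearly flat, from -0.05 to 0.06 on the log2 scale, since the 2 sets of members offset each other. A gene near that average therefore varies little between libraries and need not resemble any single member. The genes closest to that average over the 6 libraries, by root mean square difference on the log2 scale, were Rac2 (0.0134), Polr2e (0.0147), Denr (0.0154), Kars (0.0176), Nudc (0.0181) and Hsd17b12 (0.0183).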

How the data were processed

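Oligo(dT) beads were used to select messenger RNA, which was then fragmented and primed with random hexamers, per the labels' protocols. Read length, read layout and strand use are not given in the sources used here. Tools credited to the submitters' processing notes are RSEM 1.2.12, HISAT2 2.0.4, DESeq2 1.4.5 and Bowtie2 2.2.5, on GRCm38.p6, without the part each played. The authors deposited 1 table of FPKM per gene and library. In genes with 1 annotated transcript, 99.2% to 99.5% of values worth under 6 reads were whole reads (within 0.03), which placed depth at 16600000 to 18100000 reads per library. Read numbers of members are therefore approximate.

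FPKM are not counts. The test was limma 3.58.1 (R 4.3.3) on log2(FPKM + 1), with eBayes and a trend, two-sided and without a block, over genes that reached 1 FPKM in 3 or more libraries. It was tested on simulated data. Permutation tests used scipy 1.17.1, and figures matplotlib 3.10.9. Alternatives changed the pseudocount, filter, scaling, trend, block and libraries.

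The members and gene lists were chosen with earlier results of these data known. Named genes were all members, up to 4 genes per list with the highest FPKM, up to 4 with the smallest p, and the 6 most like the members. List genes below the filter were Dusp14, Styx, Spred3, Spry4, Rxrg, Klf12, Csf2, Il10, Il6, Cd3e, Cxcl12, Lepr, Pdgfrb and Hspb1. Median log2 fold changes of lists not described in the results were 0.22 for plasmacytoid dendritic cells, 0.07 for T and NK cells, -0.02 for plasma cells, -0.15 for stroma and endothelium, 0.04 for heat shock, 0.03 for mitochondrial messengers and -0.02 for Nr4a3 with NR4A partners, with 0 genes passing.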

Additional observations from a re-analysis of the deposited data

How the results depend on the processing

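Of the 10 members 0 passed in any of 15 alternatives, whose smallest limma adjusted p was 0.125 (Dusp2 and Ier3, filter of 5 FPKM). Between 3 and 6 members had an unadjusted p under 0.05, against 5 as reported, where 2342 of 12953 tested genes (18.1%) did. The count was 3 without PELI2 knockout replicate 3, where 1669 of 12953 genes had such a p. It was 6 without WT replicate 3, where 2531 of 12953 genes did. All kept their direction but Zfp36, whose log2 fold change was -0.025 rescaled to a common total, -0.019 with quantile normalization, -0.0046 without PELI2 knockout replicate 3 and -0.03 without WT replicate 2 (range without 1 library each -0.03 to 0.109); the cause was not tested. Over all genes 3 were called, against 1 with a filter of 5 FPKM, 6 without a trend, and 2 to 16 when 1 library was left out, where 16 came without PELI2 knockout replicate 3. Rescaling to a common total moved the median of all tested genes to -0.085 (log2), against -0.01 as deposited.

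The Peli2 difference stayed positive, from 0.395 to 0.733 FPKM without 1 library each and 0.569 with median-of-ratios scaling (exact permutation p = 0.2 to 0.4). Deviations from the group mean correlated only weakly between same-numbered libraries (r = 0.101, 0.036 and 0.09). Each library correlated best with its own number, but values this small cannot decide whether libraries were paired, and the labels give no pairing. With the replicate number as a block, 4 genes and 0 members were called. An unadjusted p under 0.05 was then found for 6 members, beside 2494 of 12953 tested genes.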
